A study of Mus musculus with 5 samples.

Results

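The collagen genes were taken as every row of the deposited expression table whose name has the form Col, a number, a and a number, such as *Col1a1*. This gave 44 genes of 24319 in all. They encode the alpha chains of the collagens and were sorted by collagen type into 11 fibrillar genes, 9 of basement membranes (types IV, VII, XV and XVIII), 6 of type VI, 4 transmembrane genes and 14 others. The values came from bulk RNA-seq of mammary luminal cells, the epithelial cells that line the lumen of ducts and alveoli, sorted from mouse mammary gland as live cells high in CD24 and low in CD29, after depletion of blood and endothelial cells. The study set such cells beside *Brca1*-deficient mammary tumors, and 5 luminal libraries were available.

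By their labels, 3 libraries were wild type and 2 were *Brca1* knockout, all of mixed strain. They are called wild type 1, 2 and 3 and knockout 1 and 2 here, numbered in order of deposit, and values are given in that order. In the study, *Brca1* was deleted from floxed alleles by Cre under the MMTV promoter, which is active in mammary epithelium, some mice also carried a floxed *Trp53* allele or a mT/mG reporter, and the background was C57BL/6 and 129/Sv. Donors were virgin or mid-pregnant young adult females. Which of these applied to which library, and whether each library came from a separate animal, was not given, so p-values measure only the spread between these samples. The study's text describes its luminal cells as *Brca1*-deficient, against the wild type label, and the labels' extraction text speaks of frozen tumors, against their own source name. *Brca1* itself was at 1.30, 1.32, 0.234, 1.20 and 1.34 FPKM, and the groups overlapped. FPKM (fragments mapped to a gene, scaled by the length of its transcript and by the size of the library) adds up a whole gene and does not show the loss of single exons, so it did not check the labels.

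Collagens are secreted proteins built of alpha chains wound into a triple helix. Fibrillar collagens form the rope-like fibers of connective tissue and are made mostly by fibroblasts. Type IV collagen forms the sheet of the basement membrane on which epithelium sits, type VI forms beaded filaments around cells, and type IX is known as a short collagen bound to the surface of type II fibrils in cartilage. In the mammary gland the stroma is regarded as the main source of fibrillar collagen, and sorting luminal cells is meant to leave that stroma behind.

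The luminal identity held in every library. All 7 genes of the luminal marker list (*Krt8*, *Krt18*, *Krt19*, *Epcam*, *Cd24a*, *Cldn3* and *Cldn4*) were at 1 FPKM or more in each, and their summed level was 7992, 7068, 11304, 7878 and 7484 FPKM. Wild type 3 stood apart. Its Pearson correlation with the other libraries across 11481 genes (a description, since genes are not independent) was 0.805 to 0.829, against 0.886 to 0.935 among the other 4. Its mature luminal markers summed to 470.3 FPKM, against 18.8 to 44.6 FPKM in the rest, and included *Prlr*, the prolactin receptor, at 147.7 FPKM and *Pgr*, the progesterone receptor, at 27.1 FPKM. By the steps between its low values, each library held about 6280000, 13200000, 30200000, 6380000 and 21700000 fragments. A single fragment on a long collagen transcript (5000 bases) was then worth between 0.00662 FPKM in wild type 3 and 0.0319 FPKM in wild type 1. These estimates are approximate and speak to counting error only.

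Few collagen genes were at 1 FPKM or more in every library. Over all 24319 genes, 12528 reached 1 FPKM in some library and 9863 in every library. Of the 44 collagens, 23 reached it in some library, a similar share, and 6 in every library, a lower share. These 6 were *Col9a1*, *Col9a2*, *Col9a3*, *Col16a1*, *Col4a1* and *Col4a5*. The 21 collagens outside the 23 stayed under 1 FPKM throughout, 11 of them under 0.1 FPKM. *Col22a1* and *Col26a1* were listed at 0 in each library. Collagens at 1 FPKM or more numbered 10, 20, 21, 10 and 10 by library. Wild type 2 and 3 thus had about the same number, well above the rest. All collagen FPKM summed to 129.8, 233.8, 142.8, 158.4 and 102.5, or 0.0193%, 0.0418%, 0.0272%, 0.0248% and 0.0201% of the FPKM of all genes. The median over the 44 genes of log2(FPKM + 1), a scale on which low values are compressed, was 0.44 ± 0.37 (SD, n = 5 libraries). It was 3.28 ± 0.10 over the 11481 genes that averaged 1 FPKM or more. That set was filtered by level and the collagens were not. The filter itself raises the median, so the gap does not measure how low the collagens were beside all genes. By class the median was 1.02 ± 0.46 for basement membrane, 0.59 ± 0.61 for type VI, 0.58 ± 0.53 for fibrillar, 0.34 ± 0.33 for the other and 0.08 ± 0.05 for the transmembrane genes. The ranges of mean ± SD overlapped for every pair of classes but basement membrane and transmembrane. The median of the other genes was 0.19 without wild type 3, and that of the fibrillar genes 0.38 without wild type 2. By the mean over the class in place of the median, the other genes, at 1.39, came before basement membrane, at 1.21.

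**Figure D1:**
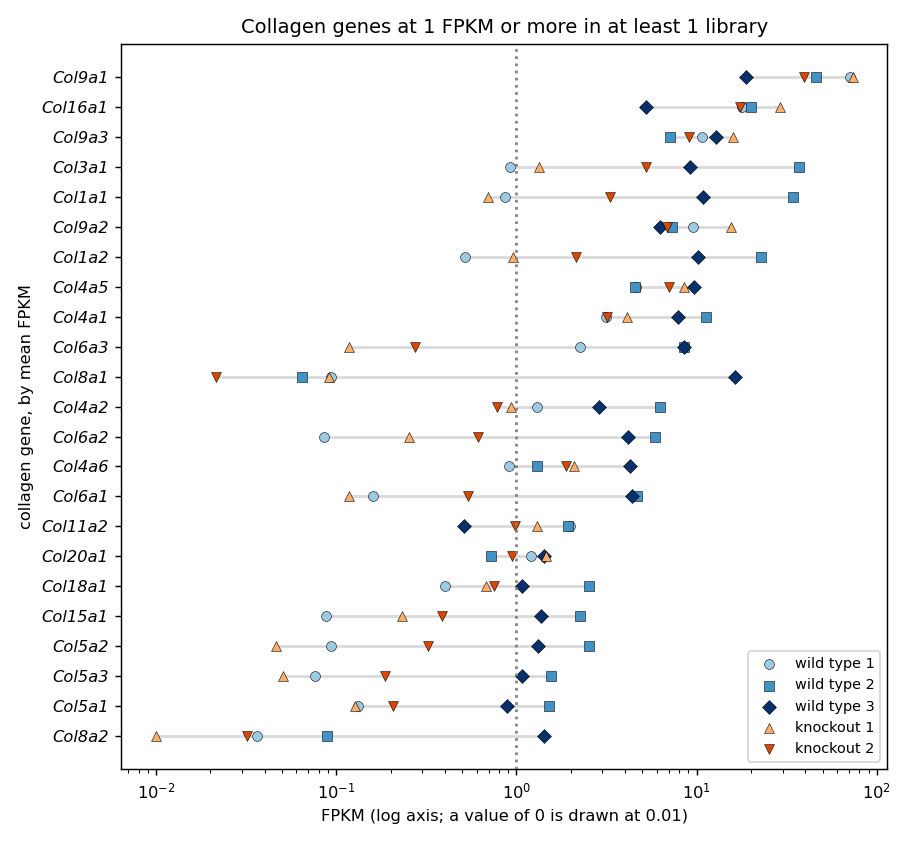
FPKM (x axis, log scale) of the 23 collagen genes that reached 1 FPKM in some library (y axis, ordered by mean), with 1 marker per library and a gray line over the range. The dotted line marks 1 FPKM. *Col9a1* lies furthest right, its markers at 18.8 to 73.3 FPKM, while the markers of *Col1a1*, *Col3a1* and the type VI genes spread widely, with wild type 2 and 3 at the high end.

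A type IX collagen gene led in every library. *Col9a1* was the highest collagen in each, at 70.9, 46.0, 18.8, 73.3 and 39.6 FPKM, and ranked 1303 among all genes by its mean of 49.7 FPKM. It was lowest in wild type 3, and the labels overlapped. *Col9a2* was at 9.49, 7.30, 6.24, 15.5 and 6.84 FPKM. *Col9a3* was at 10.7, 7.11, 12.7, 15.9 and 9.04 FPKM. These encode the partner chains of the type IX trimer, and both were below *Col9a1* in all 5 libraries. *Col9a1* exceeded *Col9a2* by a ratio of 7.48, 6.30, 3.02, 4.72 and 5.79, and *Col9a3* by 6.66, 6.47, 1.48, 4.61 and 4.38. The ratio was lowest in wild type 3 for both partners. The 3 genes together made up 70.2%, 25.9%, 26.5%, 66.1% and 54.1% of collagen FPKM. Their sum was 91.1, 60.4, 37.8, 104.7 and 55.5 FPKM. The share was lowest in wild type 2 and 3, where the fibrillar genes described further on were highest, while the sum was lowest in wild type 3 and knockout 2. By the estimated depth, *Col9a1* rested on about 1710 to 3300 fragments per library. *Col9a3* shares 6.07% of its exon bases with *Tcfl5* on the opposite strand, and the library kit did not mark strand.

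The matrix genes that accompany type IX in cartilage were low, and of those given here only *Col11a2* reached 1 FPKM. *Col2a1*, the chain of the type II fibril, was at 0.0635, 0.0459, 0.0455, 0 and 0.0186 FPKM, which amounts to about 7.02 fragments or fewer per library. *Col11a1*, a minor chain of the same fibril, was at 0.127, 0.184, 0.762, 0.0630 and 0.0997 FPKM. *Col11a2*, its partner, was somewhat higher at 1.97, 1.93, 0.514, 1.29 and 0.986 FPKM. *Acan*, the cartilage proteoglycan aggrecan, reached at most 0.0215 FPKM, *Comp* 0.226 FPKM and *Matn3*, a cartilage matrilin, 0.0156 FPKM. Of the Sox factors, *Sox9* and *Sox10* were high and *Sox5* and *Sox6* low. *Sox9*, which is known to activate cartilage collagen genes and is also expressed in luminal progenitors, was at 75.8, 63.5, 81.6, 83.4 and 65.4 FPKM. *Sox10* was at 119.3, 87.6, 71.8, 113.1 and 131.8 FPKM. *Sox5* reached 1.64 FPKM and *Sox6* 0.353 FPKM. These genes outside the collagens were chosen after their values had been seen.

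*Col9a1* (ENSMUSG00000026147) lies on chromosome 1 of GRCm38, which is mm10, from 24177610 to 24252684 on the plus strand. RefSeq gives it 2 start sites, and a gene-level FPKM does not show which was used. The 250 bases before each are printed because this gene leads the collagens in every library. *Col8a1* and *Col8a2*, described further on, are printed beside them because they were high in a single library. All are from RefSeq on GRCm38.p6, written 5′ to 3′ on the strand of the gene. Capitals mark matches, on either strand, to a CCAAT box (CCAAT) or a GC box (GGGCGG), and a TATA box (TATAAA) or Sox core (AACAAT) had no match in these 4 windows.
Col9a1 first start, chr1:24177360-24177609, plus strand: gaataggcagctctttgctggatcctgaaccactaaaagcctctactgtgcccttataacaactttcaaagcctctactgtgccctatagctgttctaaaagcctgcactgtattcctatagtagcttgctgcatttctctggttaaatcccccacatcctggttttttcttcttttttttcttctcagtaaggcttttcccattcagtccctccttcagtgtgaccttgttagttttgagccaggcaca
Col9a1 second start, chr1:24194953-24195202, plus strand: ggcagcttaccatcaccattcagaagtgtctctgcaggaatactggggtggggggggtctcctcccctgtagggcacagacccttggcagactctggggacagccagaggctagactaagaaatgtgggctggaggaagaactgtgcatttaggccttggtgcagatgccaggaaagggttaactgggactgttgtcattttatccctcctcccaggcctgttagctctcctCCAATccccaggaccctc
Col8a1, chr16:57754738-57754987, minus strand: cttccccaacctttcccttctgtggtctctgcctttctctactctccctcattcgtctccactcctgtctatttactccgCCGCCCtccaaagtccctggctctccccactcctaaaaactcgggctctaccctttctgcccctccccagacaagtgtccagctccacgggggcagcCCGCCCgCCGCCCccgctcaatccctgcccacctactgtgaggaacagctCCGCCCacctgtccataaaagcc
Col8a2, chr4:126286544-126286793, plus strand: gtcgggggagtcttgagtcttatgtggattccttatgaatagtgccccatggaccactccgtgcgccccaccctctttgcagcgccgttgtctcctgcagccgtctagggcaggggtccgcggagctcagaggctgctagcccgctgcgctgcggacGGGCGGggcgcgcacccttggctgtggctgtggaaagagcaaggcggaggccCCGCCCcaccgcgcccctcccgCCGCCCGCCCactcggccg
The first *Col9a1* window held none of these letters, the second held 1 CCAAT box, and the *Col8a1* and *Col8a2* windows held 4 GC boxes each, of which a pair in *Col8a2* overlap. Windows were at hand for 35 of the 44 collagen genes, 38 in all. A GC box was in 22 of these (57.9%), against 32.7% of all 32851 windows. A CCAAT box was in 13 (34.2%, against 33.8%), a TATA box in 5 (13.2%, against 12.4%) and a Sox core in 1 (2.63%, against 9.42%). A match describes the letters only and is not evidence of a bound site.

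*Col16a1* encodes a chain that, like type IX, attaches to fibrils rather than forming them. It was the collagen with the next highest mean, at 17.9, 20.1, 5.26, 28.9 and 17.3 FPKM, and made up 13.8%, 8.61%, 3.68%, 18.3% and 16.9% of collagen FPKM. It was lowest in wild type 3, as *Col9a1* was. On the log2(FPKM + 1) scale the mean level was 5.52 ± 0.78 for *Col9a1*, 4.08 ± 0.85 for *Col16a1*, 3.55 ± 0.41 for *Col9a3* and 3.26 ± 0.48 for *Col9a2* (SD, n = 5 libraries). The last 3 neighbors in this order differed by less than their spread. *Col20a1*, of the same fibril-associated group, was at 1.20, 0.725, 1.43, 1.45 and 0.949 FPKM. The remaining fibril-associated genes were lower, with *Col12a1* at 0.134 to 0.290 FPKM, *Col14a1* at 0.141 to 0.834 FPKM and *Col19a1* at 0.0191 FPKM or less.

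Type VIII collagen, a short-chain collagen known from vessel walls and the cornea, was high in 1 library. *Col8a1* was at 0.0936, 0.0646, 16.3, 0.0908 and 0.0215 FPKM. *Col8a2*, its partner chain, was at 0.0363, 0.0887, 1.42, 0 and 0.0320 FPKM. Wild type 3 alone was high for both, with about 2510 fragments of *Col8a1* against 2.38 to 4.34 in the others. There *Col8a1* exceeded *Col8a2* by a ratio of 11.4 and came next to *Col9a1* among all collagens. In the same library the mature luminal, fibroblast and endothelial marker sums were at their highest, and their part in the type VIII level was not tested. *Col10a1*, the related chain of growth plate cartilage, was at 0.152 FPKM or less.

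The fibrillar collagens of connective tissue varied widely between libraries. *Col1a1* and *Col1a2* encode the chains of type I collagen, the main fiber of skin, tendon and stroma. *Col1a1* was at 0.867, 34.4, 10.9, 0.694 and 3.30 FPKM, and *Col1a2* at 0.516, 22.8, 10.1, 0.962 and 2.13 FPKM. *Col3a1*, the type III chain that mixes with type I in soft tissue, was at 0.923, 36.9, 9.19, 1.33 and 5.24 FPKM. All 3 were highest in wild type 2, next in wild type 3, then in knockout 2, and at 1.33 FPKM or less in wild type 1 and knockout 1. Types I and III together were 1.78%, 40.3%, 21.1%, 1.88% and 10.4% of collagen FPKM. In bulk samples, fewer cells of a type and less RNA per cell cannot be told apart. The ratio of *Col1a1* to *Col1a2* was between 0.721 and 1.68, and that of *Col3a1* to *Col1a1* between 0.845 and 1.92. The levels themselves spanned a far wider range. Both ends of the *Col1a1* to *Col1a2* range came from low libraries. These were knockout 1, with about 26.2 and 32.8 fragments, and wild type 1, with about 32.3 and 17.3. The cause of the narrower range of the ratios was not tested.

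Type V collagen, which starts the assembly of type I fibrils, was high in the same libraries at a lower level. *Col5a1* was at 0.133, 1.52, 0.885, 0.127 and 0.206 FPKM. *Col5a2* was at 0.0936, 2.54, 1.32, 0.0463 and 0.323 FPKM. *Col5a3* was at 0.0765, 1.55, 1.07, 0.0505 and 0.187 FPKM. Each was highest in wild type 2 and 3. In the 3 libraries where both chains reached 0.1 FPKM, *Col5a1* to *Col5a2* was 0.60, 0.668 and 0.637. The remaining fibrillar genes were low throughout, with *Col24a1* at 0.0433 FPKM or less and *Col27a1* at 0.0534 to 0.240 FPKM.

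**Figure D2:**
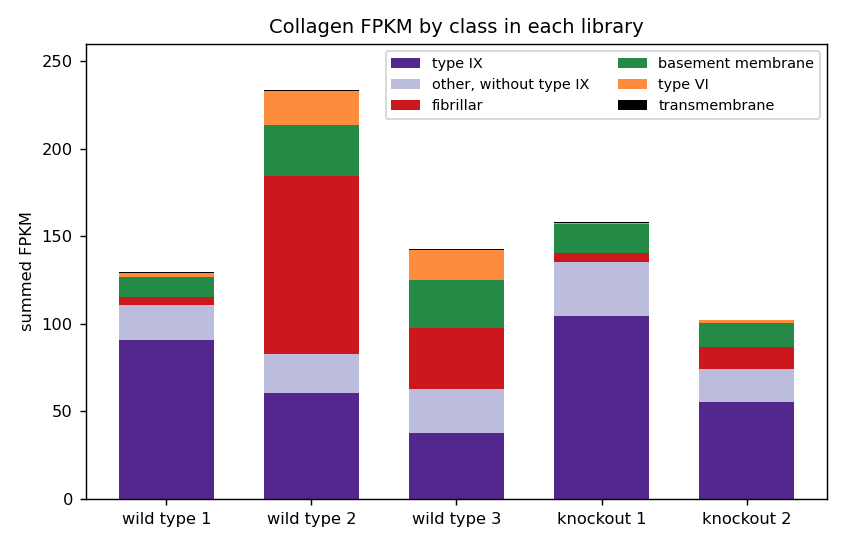
Summed FPKM of all collagen genes in each library (y axis, bars start at 0; x axis, library), split by class, with type IX drawn apart from the other genes of its class. Type IX is the largest segment in wild type 1, knockout 1 and knockout 2 and also slightly exceeds the fibrillar segment in wild type 3, while in wild type 2 the fibrillar segment, 102.1 FPKM, is the largest.

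Genes of the basement membrane sheet were present in every library. *Col4a1* and *Col4a2* encode the chains of the common type IV trimer and start back to back on chromosome 8, their first exons overlapping by 22 bases. *Col4a1* was at 3.13, 11.3, 7.83, 4.12 and 3.17 FPKM. *Col4a2* was at 1.30, 6.27, 2.89, 0.93 and 0.778 FPKM. Both were highest in wild type 2 and 3, and *Col4a1* exceeded *Col4a2* in each library, by a ratio of 2.41, 1.81, 2.71, 4.43 and 4.07. The ratio was higher in both knockout libraries than in the 3 wild type ones. *Col4a2* by itself was lower in both knockout libraries, as were 5.77% of the genes that averaged 1 FPKM or more. It rested on about 38.3 fragments in knockout 1 and 52.7 in wild type 1. The ratio was not tested, and no share over other gene pairs was at hand.

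*Col4a5* and *Col4a6*, which form the other type IV trimer of epithelial basement membranes, followed another order. They start 1309 bases apart on chromosome X. *Col4a5* was at 4.59, 4.52, 9.64, 8.53 and 7.0 FPKM, and *Col4a6* at 0.908, 1.30, 4.24, 2.1 and 1.89 FPKM. Wild type 3 was highest for both, but wild type 2 was lowest for *Col4a5* and below both knockout libraries for *Col4a6*. *Col4a5* exceeded *Col4a6* by a ratio of 5.05, 3.47, 2.27, 4.07 and 3.70. *Col4a3* and *Col4a4*, the chains of kidney, lung and cochlear basement membrane, start 72 bases apart and were at 0.0439 FPKM or less.

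*Col18a1*, the source of the endostatin fragment, was at 0.403, 2.51, 1.07, 0.675 and 0.747 FPKM. *Col15a1*, its relative in vessel and muscle basement membrane, was at 0.0879, 2.26, 1.37, 0.232 and 0.387 FPKM. For both, wild type 2 and 3 were the highest libraries. *Col7a1*, the anchoring fibril of squamous epithelium, was at 0.50, 0.910, 0.151, 0.231 and 0.132 FPKM. Of the transmembrane genes, *Col17a1*, the hemidesmosome collagen of basal epithelial cells, was at 0.569, 0.737, 0.135, 0.341 and 0.118 FPKM. Both were highest in wild type 2 and next in wild type 1. The sum of the basal marker list was also highest in these libraries, at 75.4, 141.0, 13.9, 44.8 and 67.0 FPKM, led by *Krt14*. The basal keratin *Krt5* was at 1.53, 2.34, 0.795, 0.423 and 0.232 FPKM. Not all 9 genes of the list had this order. *Oxtr* was highest in knockout 2 (12.7 FPKM) and *Trp63* in knockout 1 (0.311 FPKM). *Krt17* was slightly higher in wild type 3 (6.08 FPKM) than in wild type 1 (6.04 FPKM). The part of basal cells in the low *Col7a1* and *Col17a1* levels was not tested. *Col13a1*, *Col23a1* and *Col25a1* stayed at 0.189 FPKM or less.

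Type VI collagen was split between its chains in 1 library. *Col6a1* was at 0.159, 4.65, 4.37, 0.118 and 0.536 FPKM, and *Col6a2* at 0.0850, 5.85, 4.14, 0.253 and 0.611 FPKM. *Col6a3*, which encodes the longest chain of the same trimer (chromosome 1, 90765923 to 90843971, minus strand, GRCm38), was at 2.26, 8.49, 8.53, 0.118 and 0.275 FPKM. Wild type 2 and 3 were high for all 3 genes. Wild type 1 was high for *Col6a3* alone, with about 144 fragments of it against 4.09 of *Col6a1* and 2.62 of *Col6a2*. *Col6a3* to *Col6a1* was accordingly 14.2, 1.83, 1.95, 0.998 and 0.513. *Col6a4*, *Col6a5* and *Col6a6*, chains that can take its place, were at 0.0825 FPKM or less. *Col28a1*, which resembles type VI, was at 0.0359 FPKM or less.

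The fibroblast and endothelial marker sums were also highest in wild type 2 and 3, and so were the leukocyte markers other than *Cd74* and *Cd79a*. The fibroblast list (9 genes, *Gsn* the most abundant) summed to 14.9, 53.0, 214.6, 11.9 and 9.53 FPKM, with 8 of the 9 genes at 1 FPKM or more in some library. *Dcn*, the fibroblast proteoglycan decorin, was at 0.445, 10.3, 51.3, 0.560 and 1.22 FPKM. In knockout 1 *Pdgfrb*, *Fbln1*, *Mfap5* and *Pi16* were at 0, while *Gsn* was at 10.6, *Dpt* at 0.414, *Pdgfra* at 0.234 and *Lum* at 0.0793 FPKM. The endothelial list (8 genes, *Vwf* the most abundant, 5 at 1 FPKM or more in some library) summed to 2.68, 10.7, 24.7, 1.91 and 0.943 FPKM. *Pecam1* was at 0.193, 2.87, 3.19, 0.292 and 0.101 FPKM. The leukocyte list (8 genes, *Cd74* the most abundant, 7 at 1 FPKM or more in some library) summed to 30.2, 961.4, 256.9, 30.8 and 473.4 FPKM, where *Cd74*, an antigen presentation gene that epithelium can also express, made up 465.1 FPKM in knockout 2. *Ptprc*, the pan-leukocyte CD45, was at 0.0603, 4.93, 2.69, 0.119 and 0.183 FPKM. The pericyte list summed to 11.3 to 20.1 FPKM, led by *Notch3*, and none of the 6 adipocyte genes reached 1 FPKM. The fibroblast markers did not share 1 order of wild type 2 and 3. *Lum*, a fibroblast proteoglycan, was higher in wild type 2 (4.06 against 3.29 FPKM), as *Col1a1* was, and *Dcn* in wild type 3, so that *Col1a1* to *Dcn* was 1.95, 3.34, 0.212, 1.24 and 2.70. The depletion and sort of the study were meant to remove these cells, and their part in the collagen levels was not tested.

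Wild type 2 and 3 were the highest libraries for 20 of the 42 collagens above 0 in some library, against 14.2% of the 19352 genes so detected. By class these were 7 of 11 fibrillar, 4 of 6 type VI, 4 of 9 basement membrane, 4 of 12 other and 1 of 4 transmembrane genes. Among the genes averaging 1 FPKM or more it was 9 of 18 collagens, against 9.55% of all. This pair was picked out after the values had been seen, so the count is a description with no test.

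**Figure D3:**
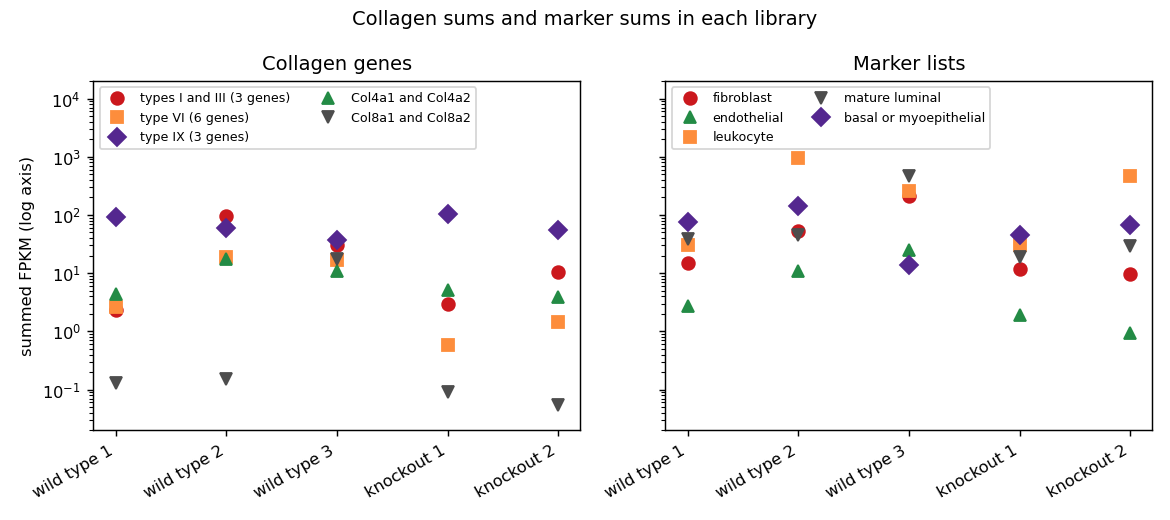
Summed FPKM (y axis, log scale) in each library (x axis) for 5 groups of collagen genes (left) and 5 marker lists (right). Types I and III, type VI and the *Col4a1* and *Col4a2* pair are highest in wild type 2 and 3, as are the fibroblast and endothelial lists, type IX stays between 37.8 and 104.7 FPKM, and type VIII is high only in wild type 3, where the mature luminal list reaches 470.3 FPKM.

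The labels were then compared over all genes with limma on log2(FPKM + 1), which asks whether *Brca1* status went with collagen levels. Of 11481 genes tested, 0 (0%) passed an adjusted p of 0.05 by Benjamini-Hochberg, and 0 of the 18 collagens among them did. At an unadjusted p under 0.05 there were 267 genes higher (2.33%) and 105 lower (0.915%) in the knockout libraries, 3.24% in all, and 1 of the 18 collagens, *Col6a3*. The last count was 8 without wild type 1 (495 of all genes higher and 373 lower), 4 without wild type 3 (546 and 296) and 2 without knockout 2 (65 and 48). With sample weights, 11 of the 18 collagens had an unadjusted p under 0.05 in limma, beside 1782 of all genes higher and 1017 lower. The weights were 0.505, 5.59 and 0.148 for wild type 1, 2 and 3 and 1.55 for each knockout library. The weighted comparison thus set mainly wild type 2, the library with the highest collagen sum, against the knockout libraries. The count of 0 after adjustment holds for 3 libraries against 2. In simulated libraries of this layout with 11481 genes, a log2 change of 1 was recovered for 98.5% of 200 changed genes where the SD was 0.2 and for 1.5% where it was 0.5. A change of 2 was recovered for 86% in the latter case. Larger spreads were not simulated, and the SD of *Col1a1* within the wild type libraries alone was 2.15 on this scale.

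*Col6a3* was lower in the knockout libraries by a log2 difference of -2.48 (SE 0.54, 95% interval -3.83 to -1.13), with an unadjusted p of 0.00481 and a limma adjusted p of 0.924. All 3 wild type values lay above both knockout values. *Col4a2* also did not overlap, at -1.12 (SE 0.51, interval -2.40 to 0.16). The type I chains gave -1.77 (SE 1.26, interval -4.95 to 1.40) for *Col1a1* and -1.57 (SE 1.17, interval -4.52 to 1.37) for *Col1a2*. These intervals were wide, and wild type 1 sat with the knockout libraries. *Col9a1* gave 0.43 (SE 0.60, interval -1.08 to 1.94), *Col16a1* 0.79 (SE 0.60, interval -0.71 to 2.28) and *Col4a5* 0.34 (SE 0.35, interval -0.54 to 1.22). Single libraries moved several of these values by over 1.5 times. With each library left out in turn, *Col1a1* ranged from -2.93 to -0.80 (without wild type 1 and 2, respectively), *Col4a2* from -1.52 to -0.69 (without wild type 1 and 2), *Col9a1* from -0.083 to 0.87 (without wild type 3 and knockout 2), *Col16a1* from 0.23 to 1.14 (the same libraries) and *Col4a5* from 0.18 to 0.65 (without wild type 2 and 3). That of *Col6a3* stayed between -2.99 and -2.22, but a pseudocount of 0.1 moved it to -4.29. Sample weights gave -3.33 for *Col1a1*, -1.82 for *Col4a2*, -2.87 for *Col6a3*, 0.20 for *Col9a1*, 0.20 for *Col16a1* and 0.64 for *Col4a5*. On the wild type side these weighted values rest mainly on wild type 2. In the main comparison the adjusted p of each of the 18 collagens was 0.924 or higher in limma. Their median log2 difference was -0.54, beside 0.11 over all genes tested. Some marker lists had lower medians, at -1.71 for 4 fibroblast, -1.34 for 2 endothelial, -1.31 for 7 leukocyte and -1.52 for 7 mature luminal genes tested. Medians above that of the collagens were -0.48 for 5 basal or myoepithelial, -0.12 for 7 luminal and 0.19 for 6 luminal progenitor genes. The 1 pericyte gene tested gave 0.34 and the 1 Schwann cell gene 0.42. Both knockout libraries lay below all wild type ones for 4 of 9 fibroblast and 5 of 8 endothelial markers, beside 6.7% of the 19352 genes above 0. The same held for 4 of 7 mature luminal, 2 of 8 leukocyte, 2 of 9 basal, 1 of 7 pericyte and 1 of 6 luminal progenitor markers. It held for none of the luminal, adipocyte or Schwann cell markers. The part of these cells in the collagen difference was not tested. Scaling by the median of ratios moved the median over all genes tested to -0.01. It moved the unadjusted counts over all genes to 208 higher and 178 lower.

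Without wild type 2 and 3 the difference was -1.45 for *Col6a3*, 0.53 for *Col1a1* and -0.39 for *Col9a1*. These libraries hold the highest *Col1a1* values, so its change of sign follows from leaving them out, and a single wild type library remains. No collagen was called in that comparison either.

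**Figure D4:**
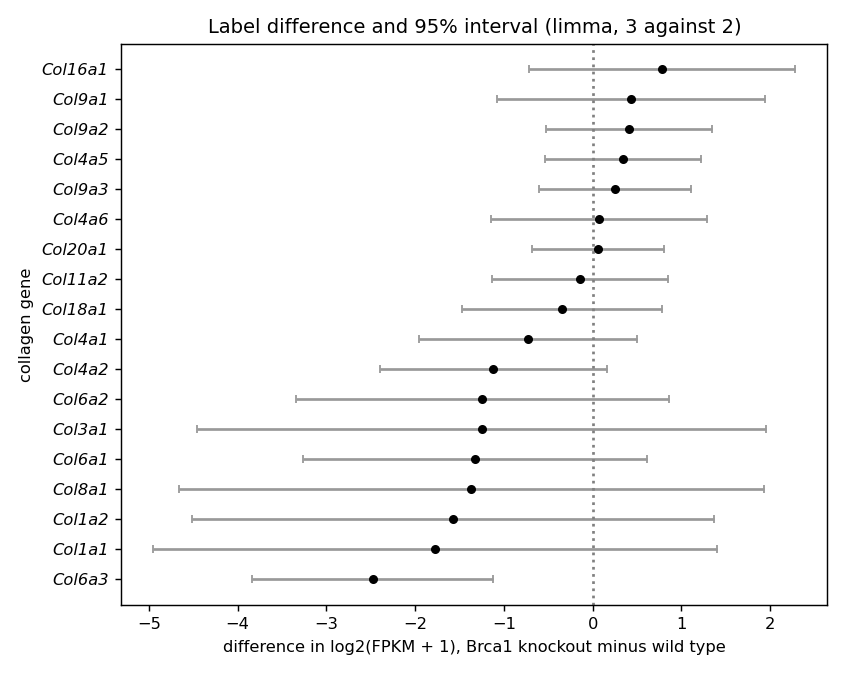
Difference in log2(FPKM + 1) between the labels, *Brca1* knockout minus wild type (x axis), for the 18 collagen genes tested (y axis), with points for the limma estimate from 3 against 2 libraries and bars for its 95% interval. The interval of *Col6a3*, -3.83 to -1.13, is the single one that does not reach 0, and 0 genes passed after adjustment.

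Both knockout libraries were below all 3 wild type libraries for 6 of the 42 collagens above 0, where 6.7% of all 19352 such genes did the same. None was above, against 13.2% of all genes. The 6 were *Col6a3*, *Col4a2*, *Col11a1*, *Col14a1*, *Col2a1* and *Col8a2*, of which the last 4 are low genes with a mean under 1 FPKM. Among the 18 tested it was 2 below, against 5.77%, and 0 above, against 17.5%. These counts turned on single libraries, and the share over all genes rose too, since fewer libraries overlap less readily. Below were 21 of 42 without wild type 1 (17.6% of all genes), 7 without wild type 2 (10.2%), 11 without wild type 3 (14.3%), 12 without knockout 1 (12.7%) and 13 without knockout 2 (14.4%). Above were 0 without wild type 1 (24% of all genes), 0 without wild type 2 (18%), 3 without wild type 3 (18.4%), 0 without knockout 1 (25.1%) and 9 without knockout 2 (24.3%). Without wild type 2 and 3 there were 12 below and 11 above, against 30.5% and 30.2% of all genes.

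Of the list for chain synthesis and folding, 18 genes were in the table and 11 were at 1 FPKM or more in every library. *P4hb*, a subunit of prolyl 4-hydroxylase that is also protein disulfide isomerase, was at 221.0, 225.5, 213.4, 199.2 and 200.3 FPKM. *Serpinh1*, the collagen chaperone HSP47, was at 34.3, 35.6, 29.1, 31.0 and 18.2 FPKM. *P4ha1*, a catalytic subunit of prolyl 4-hydroxylase, was highest in wild type 2 and 3, at 0.722, 2.56, 3.77, 0.535 and 0.601 FPKM. The same libraries were highest for *P4ha2*, *P3h1*, *P3h4* and *Fkbp10*, the last a collagen chaperone at 0.375, 0.900, 3.89, 0.310 and 0.183 FPKM. Both knockout libraries lay below all 3 wild type ones for 6 of the 18 genes, beside the 6.7% of all genes, and above them for 1, *Crtap*, beside 13.2%. *Colgalt1*, which adds galactose to collagen, was at 21.1 to 39.1 FPKM, and *P3h2*, a prolyl 3-hydroxylase known for type IV collagen, at 8.14 to 25.7 FPKM. Between the labels 0 of the 15 genes tested passed in either direction by limma, adjusted or not.

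Genes that act on collagen outside the cell were mostly low. Of 12 genes for propeptide cleavage and cross-linking, *Bmp1*, the procollagen C-proteinase, was the only one at 1 FPKM or more in every library, at 5.27, 6.32, 10.5, 5.49 and 2.71 FPKM. *Lox*, lysyl oxidase, was at 0.0701, 0.980, 1.58, 0.0347 and 0.0656 FPKM. *Loxl1* was at 0, 1.36, 1.22, 0.0947 and 0.112 FPKM. Both cross-linking enzymes were thus highest in wild type 2 and 3, while their relative *Loxl3* was lowest in wild type 3, at 0.152 FPKM against 0.193 to 0.385 FPKM. Of the degradation list, *Timp2*, an inhibitor of metalloproteinases, was at 43.5 to 67.2 FPKM. *Mmp14*, a membrane-bound collagenase, was at 4.80, 9.94, 55.2, 2.26 and 2.69 FPKM, and *Mmp2*, which it activates, at 0.211, 4.59, 7.39, 0.157 and 0.526 FPKM. Both were highest in wild type 3. In limma 0 of the 4 and 0 of the 6 genes tested on these lists passed, adjusted or not.

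Of the collagen receptors, the epithelial *Ddr1* was at 39.6, 42.9, 30.9, 46.4 and 54.7 FPKM. Both its knockout values were above the wild type ones, as for 17.5% of all genes tested. Its mesenchymal relative *Ddr2* was at 0.0999, 0.386, 0.950, 0.0854 and 0.216 FPKM. *Itgb1*, the beta chain of the collagen-binding integrins, was at 55.0 to 84.0 FPKM, and *Itga2*, an alpha chain that pairs with it, at 1.98, 3.81, 6.06, 4.40 and 5.64 FPKM. *Mrc2*, an uptake receptor for collagen, was at 0.0536 to 0.457 FPKM. None of the 3 receptor genes tested passed. Among the partners of collagen in basement membranes, the laminin chains *Lamb3* (18.5 to 52.4 FPKM) and *Lama5* were the most abundant. *Lama5* was at 28.3, 31.7, 61.1, 16.8 and 18.5 FPKM, and no knockout value reached a wild type one, as for 5.77% of all genes tested. *Pxdn*, the peroxidase that cross-links type IV collagen, went the other way, as 17.5% did, at 9.83, 10.96, 4.98, 12.5 and 14.5 FPKM. *Nid1*, which links laminin to type IV collagen, was at 0.0257, 2.60, 2.71, 0.0762 and 0.384 FPKM, and *Sparc*, a collagen-binding protein, at 3.64, 26.7, 7.73, 2.56 and 3.13 FPKM. Of the 13 partners tested, 0 passed after adjustment, and 1, *Lama5*, had an unadjusted p under 0.05 in limma, beside 3.24% of all genes. For *Lama5* the log2 difference was -1.07 (SE 0.36), with an adjusted p of 0.924 in limma.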

How the data were processed

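The deposited table holds FPKM values of 24346 rows for the 5 libraries. The authors sorted luminal cells, made paired-end libraries with a kit that does not mark strand, sequenced them on a pair of HiSeq models without saying which library ran on which, aligned to mm10 with TopHat and made the FPKM with Cufflinks. The submitters' processing notes name Trimmomatic 0.35, TopHat2 2.0.13 and Cufflinks 2.2.1, and the TopHat version in the study's methods differs. The gene annotation was not given in the sources used here. In 27 rows a spreadsheet had turned the gene name into a date, and these were left out. Replicates were not pooled, and no pair of libraries was identical.

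Values were used as deposited, and tests ran on log2(FPKM + 1), which understates the change of low genes. Genes averaging 1 FPKM or more were compared with limma 3.58.1 (lmFit, eBayes with trend) in R 4.3.3, with Benjamini-Hochberg adjustment and a threshold of 0.05. An exact permutation test of 3 libraries against 2, two-sided with the smaller tail doubled, cannot give a p below 0.2, so none is quoted for single genes. The limma step was tested on simulated data. Depth came from the step between low values of FPKM times transcript length, over 873 genes with 1 transcript longer than 3000 bases in GENCODE M21 (GRCm38). Between 50.4% and 58.7% of low values lay near a whole multiple, where 30% would by chance, so no count model was run. Promoter windows were the 250 bases before each RefSeq start site. Every collagen gene with 1 FPKM or more in some library is given singly and the rest by range; pathway and marker genes are named where they lead their list or differ most between libraries. The members and lists were chosen with earlier results of these data known. Alternatives were another pseudocount (0.1), other scalings and filters, sample weights, and each library left out. The tumor, basal and single cell data of the study were not used here. Software was Python 3.11.15 with scipy 1.17.1, pandas 2.3.3 and numpy 2.4.6.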

Additional observations from a re-analysis of the deposited data

Results flagged for a closer look

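Taken over all 5 libraries as 1 group, since the study did so, the 23 collagen genes that reached 1 FPKM in some library were examined. Dixon's criterion, on the log2(FPKM + 1) scale, marks a sample far from the others. Chance alone exceeds it in about 5% of groups not chosen by their values. There were 2 genes past it, both in wild type 3. They reached 1 FPKM in that library only, so the rate of 5% does not apply to them. The same criterion held for 13.7% of the 12528 genes that reached 1 FPKM in some library, and 3.86% of them were high in wild type 3, so a count of 2 among 23 says nothing particular to the collagens. *Col8a1* was at 16.3 FPKM there, against 0.0215 to 0.0936 FPKM in the other 4 libraries. *Col8a2* was at 1.42 FPKM there, against 0 to 0.0887 FPKM. Wild type 3 was also the library with the lowest correlation to the rest and the highest mature luminal, fibroblast and endothelial marker sums. Their part in the type VIII values was not tested.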

How the results depend on the processing

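Over 29 results, 247 alternative values were computed, of which 216 kept their call or stayed within the replicate SD or 1.5 times the count, 27 moved further and 4 reversed. No collagen gene passed after adjustment under any alternative run. Over all genes, the count called between the labels was 0, but 1 with sample weights, 3 without wild type libraries 2 and 3, and 0 to 18 when each library was left out, where a label left with a single library was assumed to vary like the other. Sample weights gave 11 of 18 collagens an unadjusted p under 0.05 in limma, beside 1782 genes higher and 1017 lower. Those weights put wild type 2 far above the other wild type libraries. The difference of *Col1a1* reversed to 0.53 without wild type 2 and 3, and that of *Col9a1* to -0.39. With each library left out, *Col9a1* ranged from -0.083 to 0.87. Collagens with knockout above wild type numbered 2 after quantile scaling, 0 to 9 with each library left out and 11 without wild type 2 and 3. Those below numbered 2 with either filter on low values, 7 to 21 with each library left out and 12 without wild type 2 and 3. With a library left out, 18% to 25.1% of all genes lay above and 10.2% to 17.6% below, and without wild type 2 and 3 it was 30.2% and 30.5%. A pseudocount of 0.1 lowered the class medians to -1.71 (other), -1.06 (fibrillar), -2.68 (transmembrane), 0.091 (basement membrane), -1.51 (type VI) and -1.34 (all), as the smaller pseudocount does by construction, and the mean in place of the median gave 1.39 (other), 0.16 (transmembrane) and 1.05 (all). Without the highest collagen of each library, transmembrane genes made up 0.568% and basement membrane genes 19.7% of collagen FPKM, from 0.345% and 12.9%. The alternative without wild type 2 and 3 and the leave-one-out values of the chain ratios were chosen after seeing the data. No paired analysis was possible because the labels give no replicate numbers shared by the groups. Depth, known only as an estimate, limits values under about 0.1 FPKM to a few fragments in wild type 1 and knockout 1.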
